A study of Rattus norvegicus and Mus musculus with 24 samples.

Results

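The measurements described here are those of NRF2 (gene symbol NFE2L2), its inhibitor KEAP1 and 6 classic NRF2 target genes, NQO1, HMOX1, TXNRD1, SRXN1, TXN and OSGIN1, in the kidneys of cystinosin-deficient mice and rats. The 8 genes were chosen by symbol, with no threshold on their values, and all 8 were found among the 17376 symbols of the mouse table and the 14931 symbols of the rat table. Cystinosin, encoded by CTNS, exports cystine from lysosomes, and its loss causes the storage disease cystinosis. Bulk RNA sequencing covered 4 Ctns KO and 4 Ctns WT mice on a C57BL/6 background and 8 Ctns KO and 8 Ctns WT Sprague-Dawley rats, with 1 library per animal and littermates as controls. The rats carried the numbers 17 to 24 and 25 to 32, each range with 4 KO and 4 WT rats, and the labels do not say what set the ranges apart. The labels give no age, sex or treatment for the sequenced animals, and they name kidney cortex as the source but also proximal tubule cells. The study's reporting summary states that the mice in all its experiments were female, and the sex of the sequenced rats is not given.

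NRF2 is the transcription factor that drives the cell's defence against oxidants and electrophiles. In unstressed cells, KEAP1 holds NRF2 in a ubiquitin ligase complex and has it degraded, and oxidation of KEAP1 cysteines lets NRF2 accumulate, pair with a small MAF protein and bind the antioxidant response elements of its targets. Because the pathway is controlled largely through the stability of the NRF2 protein, its activity is usually read from its target transcripts rather than from the NFE2L2 transcript. In the kidney, the pathway is best known from proximal tubule cells exposed to toxic or ischaemic stress.

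Sequences in front of the start sites were taken from the RefSeq promoter table of the rat build GRCr8, which held an entry for 7 of the 8 genes but none for Hmox1. Each window ran from 250 bases before the start to 10 bases after it. NRF2 is known to bind the antioxidant response element, and the letters TGANNNNGC, a loose form of its core, were searched on both strands. Of 33469 promoter windows of this length in the table, 36.1% held at least 1 such match, and 10.55% held the narrower TGACNNNGC, all of whose matches are also matches of the loose form. Such a match is a description of the letters and shows no binding. The window of Srxn1 is shown because SRXN1 rose in the KO rats. That of Txnrd1 is shown because, among the 7 genes with an entry, it alone held the narrower form. That of Nqo1 is shown because NQO1 responded differently in the 2 number ranges of rats described below. Capitals mark the matches on either strand.
Srxn1 (chr3:161064562-161064821, plus strand): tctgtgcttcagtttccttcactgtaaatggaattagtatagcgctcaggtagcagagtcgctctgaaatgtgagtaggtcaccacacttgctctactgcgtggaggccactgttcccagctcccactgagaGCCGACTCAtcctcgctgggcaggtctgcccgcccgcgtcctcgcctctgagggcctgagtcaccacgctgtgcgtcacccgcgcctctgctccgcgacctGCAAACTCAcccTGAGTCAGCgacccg
Txnrd1 (chr7:22755895-22756154, minus strand): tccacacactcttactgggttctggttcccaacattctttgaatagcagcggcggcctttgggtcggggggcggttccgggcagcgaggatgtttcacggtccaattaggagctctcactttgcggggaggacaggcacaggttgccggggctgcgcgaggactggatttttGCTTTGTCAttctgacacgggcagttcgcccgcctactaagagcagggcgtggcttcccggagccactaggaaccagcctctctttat
Nqo1 (chr19:52220258-52220517, minus strand): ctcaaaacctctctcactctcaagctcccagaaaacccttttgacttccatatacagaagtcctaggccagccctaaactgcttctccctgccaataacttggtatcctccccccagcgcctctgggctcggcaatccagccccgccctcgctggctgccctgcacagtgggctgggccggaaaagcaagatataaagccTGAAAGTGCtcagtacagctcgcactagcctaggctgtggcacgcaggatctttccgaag
Srxn1 held 3 matches, which began 118, 17 and 5 bases before the start in the letters as printed. The Txnrd1 window held 1 match, 78 bases before the start, and belongs to the second of the 2 Txnrd1 start sites in the table. The window of the first held none. The Nqo1 window held 1 match, 50 bases before the start. Keap1 and Osgin1 also held 1 match each, and the windows of Nfe2l2 and Txn1 held none.

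Reads summed over genes came to 19309449 to 33727377 in KO mice and 19716951 to 44449859 in WT mice, and to 24684097 to 31165596 in KO rats and 25002089 to 40629873 in WT rats. The targeted transcript was lower in every KO mouse, with CTNS at 0.319 to 0.342 against 0.824 to 1.03 scaled units in WT mice (log2 change -1.43, SE 0.08, adjusted p = 2.17e-07, limma). In rats, CTNS ran from 16.8 to 22.2 CPM (read counts scaled to the library size, with TMM normalization) in KO and from 19.2 to 27.96 CPM in WT (log2 change -0.22, SE 0.08, adjusted p = 0.0511, edgeR). Within the number ranges it did not pass in rats 17 to 24 (log2 change -0.11, adjusted p = 0.514) and fell by 0.32 (SE 0.11, adjusted p = 0.0391) in rats 25 to 32. The groups overlapped in each of these comparisons, so this transcript does not check the rat labels. Markers of the distal nephron, of podocytes and of endothelium were present in all libraries. The distal nephron list had summed levels of 3005 to 10578 CPM (without TMM in mice), so the material did not hold proximal tubule cells alone.

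HMOX1 and SRXN1 rose in Ctns KO rats, and the other 6 genes did not pass the test over all 16 rats. The 2 calls compare with 27.5% of all 11584 rat symbols tested that passed the test in either direction, 15.2% as a rise and 12.3% as a fall. HMOX1 encodes haem oxygenase 1, the inducible enzyme that breaks haem down to biliverdin, iron and carbon monoxide. Its level was lowest at 10.4, had a median of 16.2 and was highest at 22.6 CPM in the 8 KO rats, and the same values were 3.83, 5.42 and 6.06 CPM in the 8 WT rats. Every KO rat was above every WT rat, which held for 5.88% of all symbols tested, in either direction. The difference was 3.09-fold (95% confidence interval 2.38 to 4.01, log2 change 1.63, SE 0.18, adjusted p = 7.49e-06, edgeR).

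SRXN1 encodes sulfiredoxin, which restores overoxidised peroxiredoxins and whose rat promoter is printed above. It was expressed at a low level, from 4.35 to 6.61 CPM with a median of 4.85 in KO rats and from 1.63 to 2.77 CPM with a median of 2.23 in WT rats. The groups did not overlap. The ratio was 2.36-fold (95% confidence interval 1.97 to 2.84, adjusted p = 3.69e-06, edgeR). These values rest on 114 to 216 reads per KO rat and 44 to 88 reads per WT rat. In this and in the following results from bulk tissue, fewer cells of a type and less RNA per cell cannot be told apart.

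**Figure D1:**
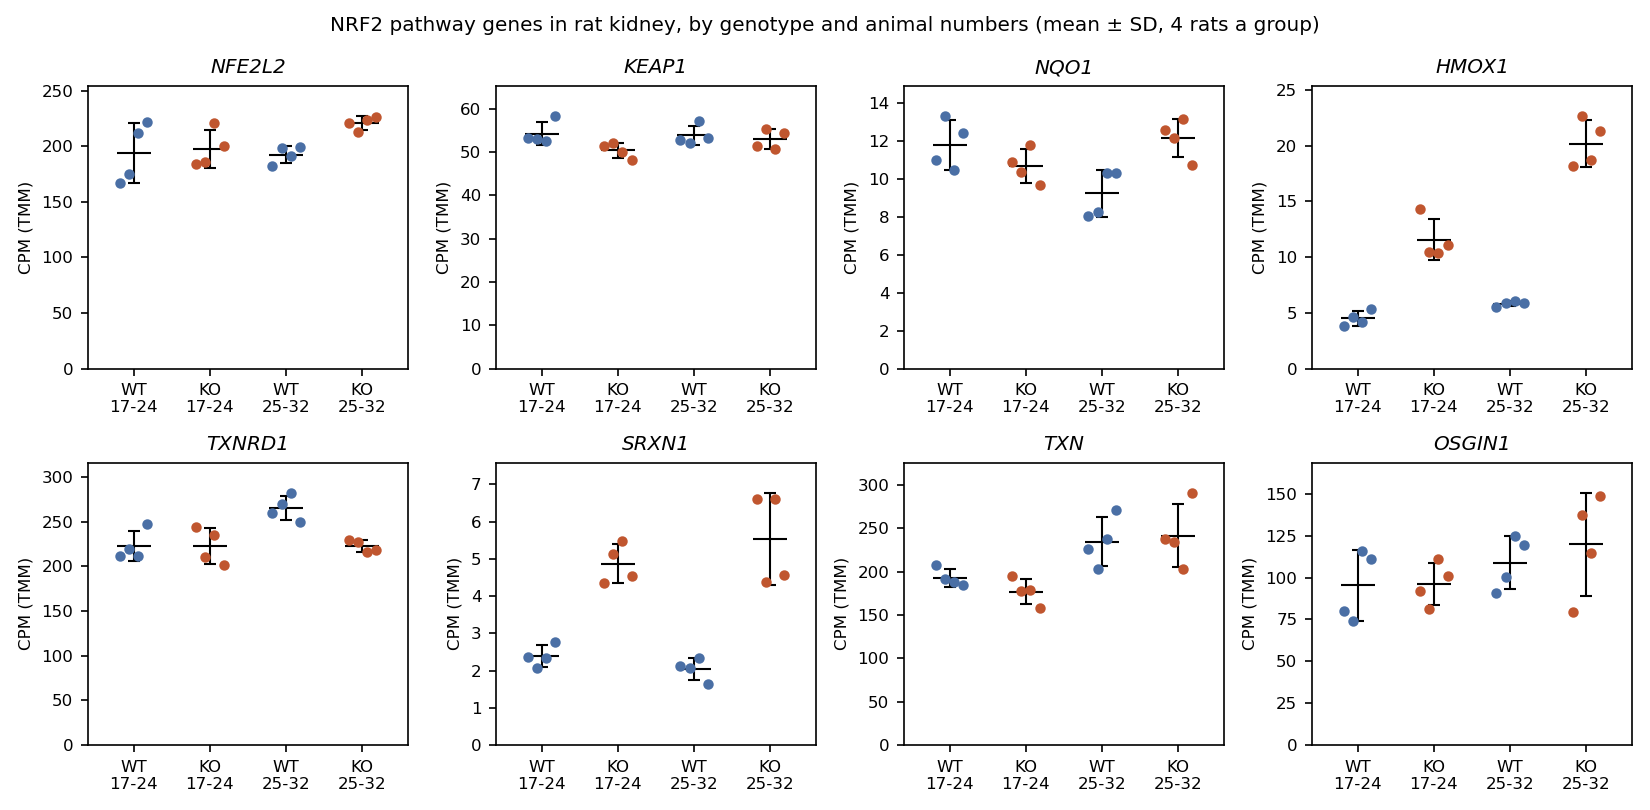
Levels of the 8 genes in each rat, in CPM after TMM normalization, for WT (blue) and KO (orange) rats of the numbers 17 to 24 and 25 to 32, with the mean and SD of 4 rats. HMOX1 and SRXN1 lie higher in KO than in WT rats in both ranges, whereas KEAP1 stays between 48.2 and 58.3 CPM throughout.

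HMOX1 and SRXN1 rose in each number range taken alone. Among rats 17 to 24, HMOX1 stood at 14.3, 10.4, 10.4 and 11.1 CPM in the KO rats and at 3.83, 4.64, 4.19 and 5.32 CPM in the WT rats. Among rats 25 to 32, it stood at 18.1, 22.6, 18.7 and 21.3 CPM in the KO rats and at 5.52, 5.88, 6.06 and 5.86 CPM in the WT rats. All KO rats were above all WT rats in each range, and the KO rats of the higher numbers were above those of the lower numbers. The fold change was 2.58 (log2 change 1.37, SE 0.14, adjusted p = 9.39e-05, edgeR) in rats 17 to 24 and 3.48 (log2 change 1.80, SE 0.10, adjusted p = 9.26e-07) in rats 25 to 32. The difference between these changes, 0.44 on the log2 scale with a 95% confidence interval from 0.08 to 0.80, did not pass the test (adjusted p = 0.0903, edgeR), but it did when KO rat 18 was left out (0.56, adjusted p = 0.0295).

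SRXN1 in rats 17 to 24 was at 4.35, 5.13, 5.49 and 4.54 CPM in the KO rats and at 2.38, 2.07, 2.34 and 2.77 CPM in the WT rats. In rats 25 to 32 it was at 6.61, 4.37, 6.61 and 4.58 CPM in the KO rats and at 2.12, 2.06, 2.33 and 1.63 CPM in the WT rats. In the higher range the KO rats formed a higher and a lower pair, both above the WT rats. SRXN1 rose 2.05-fold (log2 change 1.04, SE 0.14, adjusted p = 0.000881, edgeR) in the lower and 2.75-fold (log2 change 1.46, SE 0.19, adjusted p = 2e-04) in the higher range. The changes differed by 0.42 on the log2 scale, with an interval from -0.07 to 0.91 (adjusted p = 0.217, edgeR). A call in the same direction in both ranges was made for 6.46% of all symbols tested in both.

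The regulators themselves moved little. NFE2L2, which encodes NRF2, ran from 184 to 227 CPM with a median of 217 in KO rats and from 167 to 222 CPM with a median of 195 in WT rats. The groups overlapped over all rats (log2 change 0.12, SE 0.07, adjusted p = 0.188, edgeR). In rats 25 to 32, however, NFE2L2 was at 221, 213, 224 and 227 CPM in the KO rats and at 182, 198, 191 and 199 CPM in the WT rats, without overlap. It rose there by 15.7% (log2 change 0.21, SE 0.06, adjusted p = 0.0111, edgeR). The change in rats 17 to 24 was 0.03 (SE 0.10, adjusted p = 0.893), and the difference between the ranges, 0.18 with an interval from -0.07 to 0.42, did not pass the test (adjusted p = 0.302).

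KEAP1, the cysteine sensor that targets NRF2 for degradation, ran from 48.2 to 55.4 CPM with a median of 51.5 in KO rats and from 52.2 to 58.3 CPM with a median of 53.2 in WT rats. Over all rats the log2 change was -0.06 (95% confidence interval -0.14 to 0.03, adjusted p = 0.311, edgeR). In rats 17 to 24 every KO rat, at 51.5, 52.0, 50.001 and 48.2 CPM, was below every WT rat, at 53.2, 53.1, 52.5 and 58.3 CPM. Groups without overlap were found for 13.9% of all symbols in that comparison, and the change of -0.10 (SE 0.05) did not pass the test (adjusted p = 0.35, edgeR).

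NQO1 and TXNRD1 passed the test in rats 25 to 32 and not in rats 17 to 24. In rats 25 to 32, 5 of the 8 genes passed, 4 higher and 1 lower, in a comparison in which 43.8% of all symbols passed, 21.8% higher and 22.1% lower. The same 5 genes had groups that did not overlap there, as had 40.8% of all symbols. In rats 17 to 24, 2 of the 8 genes passed, both higher, against 7.26% of all symbols, 5.07% higher and 2.19% lower.

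NQO1 encodes a quinone reductase that is widely used as a readout of NRF2. In rats 17 to 24 it was at 10.9, 10.4, 11.8 and 9.66 CPM in the KO rats and at 10.997, 13.3, 10.5 and 12.4 CPM in the WT rats, and the groups overlapped. In rats 25 to 32 it was at 12.6, 12.2, 13.2 and 10.8 CPM in the KO rats and at 8.05, 8.25, 10.3 and 10.3 CPM in the WT rats, and every KO rat was higher. The log2 change was -0.14 (SE 0.10, adjusted p = 0.503, edgeR) in the lower and 0.41 (SE 0.12, adjusted p = 0.0173) in the higher range. NQO1 was the only member for which the difference between these changes passed the test (0.55, 95% confidence interval 0.22 to 0.88, adjusted p = 0.0258, edgeR), in a test passed by 14.7% of all symbols, 7.1% with a higher and 7.64% with a lower change in the higher range. The WT rats of the higher range were themselves lower in NQO1 than those of the lower range (log2 difference -0.36, SE 0.11, adjusted p = 0.0286, edgeR), in a comparison passed by 21.1% of all symbols, 11.7% higher and 9.43% lower, and the same WT libraries enter both differences. The rise in the higher range did not pass without WT rat 25 (0.35, adjusted p = 0.0536). The difference between ranges did not pass without KO rat 24, KO rat 28, WT rat 19 or WT rat 27 (adjusted p = 0.0501 to 0.0582), and that between the WT ranges did not pass without WT rat 19, 23, 25 or 27 (adjusted p = 0.0658 to 0.101).

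TXNRD1 encodes the cytosolic thioredoxin reductase. In rats 25 to 32 it was at 229, 227, 216 and 218 CPM in the KO rats and at 259, 270, 282 and 249.9 CPM in the WT rats, and every KO rat was lower. It fell there by 0.24 on the log2 scale, or 15.5% (SE 0.06, adjusted p = 0.00787, edgeR). In rats 17 to 24 the values were 244, 210.03, 235 and 202 CPM in the KO rats and 212, 219.9, 212 and 248 CPM in the WT rats, with overlapping groups and a log2 change of 0.01 (SE 0.07, adjusted p = 0.971). The KO rats of the 2 ranges had nearly the same mean, 223 and 222 CPM, while the WT rats of the higher range were above those of the lower (log2 difference 0.25, SE 0.07, adjusted p = 0.014, edgeR). That WT difference did not pass without WT rat 29 (0.20, adjusted p = 0.0741). The genotype changes of the 2 ranges differed by -0.25 (95% confidence interval -0.45 to -0.04), which did not pass the test (adjusted p = 0.0894, edgeR) unless WT rat 23 was left out (-0.30, adjusted p = 0.0342).

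**Figure D2:**
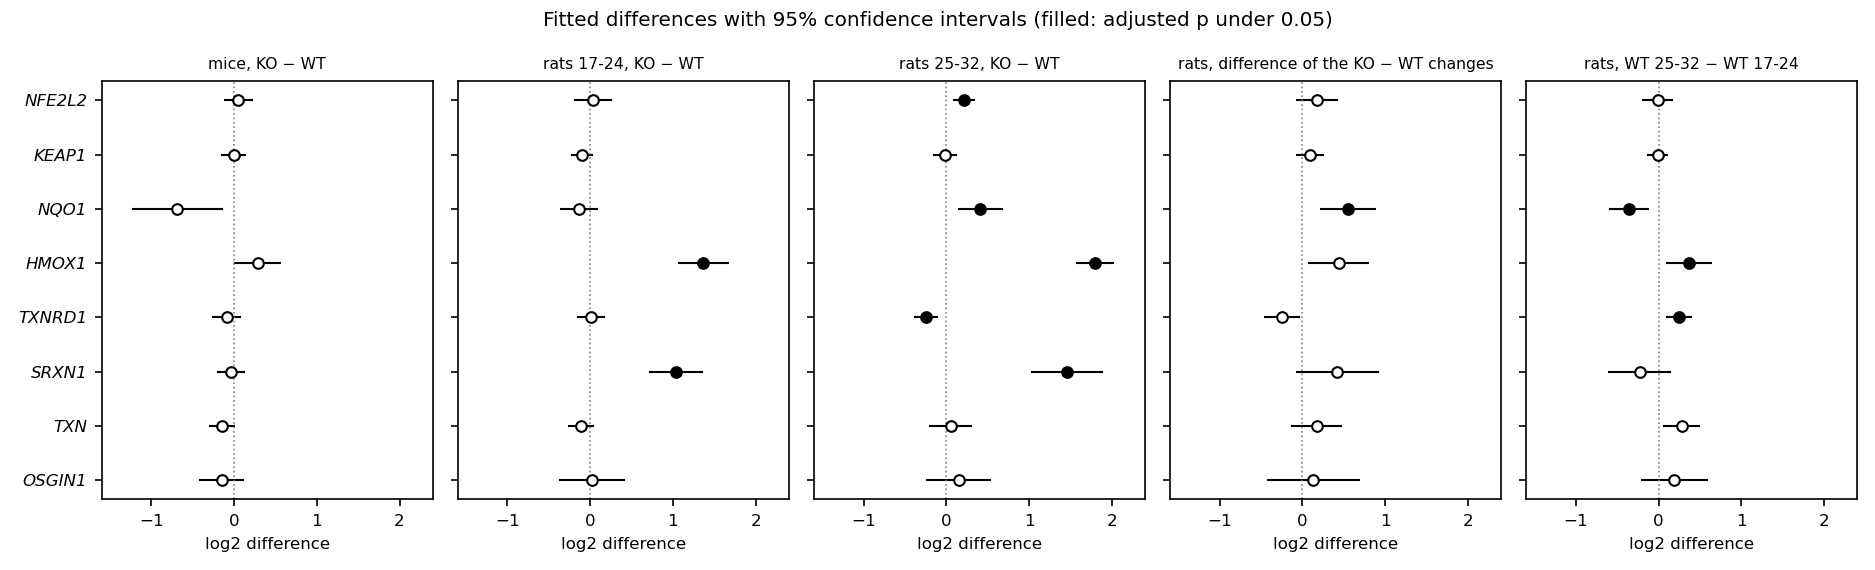
Fitted log2 differences of the 8 genes with 95% confidence intervals for KO against WT in mice and in each range of rats, for the difference between the changes of the 2 rat ranges, and for WT rats of the 2 ranges. Filled points passed an adjusted p of 0.05, which in the mice no member did and in both rat ranges HMOX1 and SRXN1 did.

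TXN, the thioredoxin that TXNRD1 reduces, ran from 158 to 291 CPM in KO rats and from 184 to 271 CPM in WT rats, with medians of 199 and 205 CPM. Its log2 change was -0.02 (95% confidence interval -0.27 to 0.22, adjusted p = 0.899, edgeR). The spread lay mainly between the ranges, since the mean rose from 177 to 241 CPM in KO rats and from 193 to 234 CPM in WT rats. For WT rats that difference was 0.28 on the log2 scale (SE 0.10, adjusted p = 0.0564, edgeR) and missed the threshold, but it passed with DESeq2 and without KO rat 30, KO rat 32 or WT rat 27 (adjusted p = 0.0227 to 0.0404).

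OSGIN1, an oxidative stress-induced growth inhibitor, ran from 79.2 to 149 CPM in KO rats and from 74.0 to 125 CPM in WT rats, with medians of 106 CPM in both. Its log2 change was 0.09 (95% confidence interval -0.21 to 0.38, adjusted p = 0.68, edgeR). Among the genes that did not pass, OSGIN1 had the widest interval, and its coefficient of variation was 23.3% in KO and 18.5% in WT rats, against 4.44% and 4.23% for KEAP1.

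WT rats of the higher range also had more HMOX1 than those of the lower, by 0.37 on the log2 scale (SE 0.13, adjusted p = 0.0457, edgeR). That call was lost in 10 of 19 alternative analyses, namely with a looser filter on low counts and without KO rat 24 or 32 or WT rat 17, 19, 21, 25, 27, 29 or 31, with adjusted p-values up to 0.125. The levels of NFE2L2 and KEAP1 in WT rats of the 2 ranges differed by -0.01 each (95% confidence intervals -0.19 to 0.16 and -0.12 to 0.10).

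In Ctns KO mice none of the 8 genes passed the test, in a comparison passed by 8.51% of 12532 symbols, 6.14% higher and 2.36% lower. At an unadjusted p under 0.05, 2 genes differed, NQO1 and HMOX1, as did 21.6% of all symbols. Of the symbols that passed, 72.2% were higher in KO mice, and this share was 91.4% when the reads were scaled to the library total and 61.6% with DESeq2. With edgeR on the reads recovered from the scaled values, which called 1198 symbols against 1066 with limma, no member passed, and with DESeq2 NQO1 alone did. The mouse values are in scaled units, in which 1 unit is close to the 75th percentile of the genes of a library.

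NQO1 (chr8:107388225-107403206, minus strand, mouse build GRCm38) was at 0.751, 0.688, 0.732 and 0.951 units in the KO mice and at 1.54, 0.851, 1.71 and 1.10 units in the WT mice. The KO mice were lower apart from an overlap between KO mouse 8 and WT mouse 2. The log2 change of -0.69 (95% confidence interval -1.22 to -0.15) had an unadjusted p of 0.0189 and an adjusted p of 0.132 (limma). It passed the test with DESeq2 (-0.76, adjusted p = 0.0258) and without WT mouse 2 (-0.87, adjusted p = 0.0133, limma).

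HMOX1 (chr8:75093621-75100589, plus strand) was at 0.534, 0.650, 0.568 and 0.601 units in the KO mice and at 0.416, 0.593, 0.546 and 0.391 units in the WT mice, and the groups overlapped. Its log2 change of 0.29 (95% confidence interval 0.01 to 0.56) had an adjusted p of 0.211 (limma), and it too passed without WT mouse 2 (0.39, adjusted p = 0.0417). SRXN1 (chr2:152105516-152111376, plus strand) was at 2.16, 2.199, 2.23 and 1.95 units in the KO mice and at 2.25, 2.09, 2.43 and 2.02 units in the WT mice. These ranges overlapped, and the log2 change was -0.04 (95% confidence interval -0.19 to 0.11, adjusted p = 0.819, limma).

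The mouse TXN gene (chr4:57943373-57956411, minus strand) was the only member whose groups did not overlap, at 3.59, 3.45, 3.53 and 3.61 units in the KO mice and 4.43, 3.77, 3.84 and 3.67 units in the WT mice. Groups without overlap were found for 14.1% of all mouse symbols. The log2 change of -0.14 (SE 0.07) did not pass the test (adjusted p = 0.243, limma). TXNRD1 (chr10:82833951-82897712, plus strand) ran from 3.49 to 3.73 units in KO and from 3.47 to 4.29 units in WT mice, with a log2 change of -0.09 (SE 0.08, adjusted p = 0.568).

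NFE2L2 (chr2:75675513-75704641, minus strand) ran from 3.01 to 3.23 units in KO and from 2.75 to 3.51 units in WT mice, and its log2 change was 0.05 (SE 0.07, adjusted p = 0.769, limma). KEAP1 (chr9:21229730-21239361, minus strand) ran from 0.963 to 1.14 units in KO and from 1.03 to 1.09 units in WT mice, and its 95% confidence interval was from -0.14 to 0.14 on the log2 scale. OSGIN1 (chr8:119434124-119446256, plus strand) ran from 1.31 to 1.61 units in KO and from 1.36 to 2.07 units in WT mice (log2 change -0.15, SE 0.12, adjusted p = 0.517). For 7 of the 8 genes the KO and WT values of the mice overlapped.

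**Figure D3:**
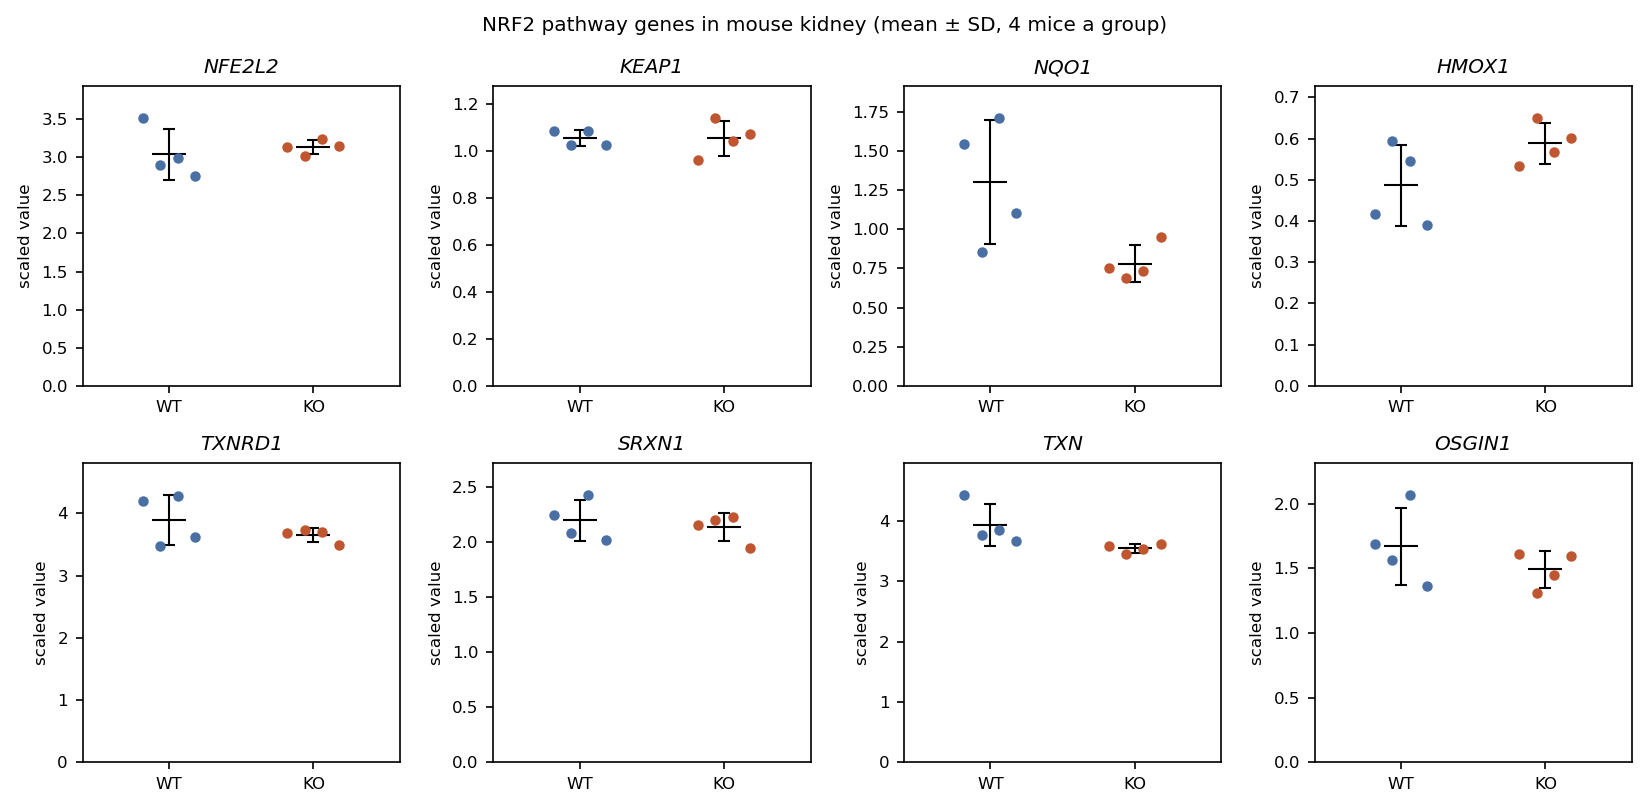
Scaled values of the 8 genes in each WT (blue) and KO (orange) mouse, with the mean and SD of 4 mice. The NQO1 values of the WT mice spread from 0.851 to 1.71 units, whereas those of the KO mice lie between 0.688 and 0.951 units.

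Set side by side, SRXN1 was 2.36-fold higher in KO than in WT rats, and in mice the ratio was 0.973 with a 95% confidence interval from 0.874 to 1.08. For HMOX1 the ratios were 3.09 in rats and 1.22 (95% confidence interval 1.01 to 1.48) in mice. For NQO1 they were 1.09 (0.937 to 1.27) in rats and 0.621 (0.428 to 0.901) in mice. SRXN1 gave 44 to 88 reads in each WT rat and 1904 to 4211 reads in each WT mouse, so its ratios start from very different levels. The tables of the 2 species were scaled differently, and the difference between species was not tested.

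A wider list of 75 genes of the NRF2 pathway held 62 that were tested in mice and 60 in rats. In KO mice 2 of them rose and 8 fell, which is 16.1% against 8.51% of all symbols, and in KO rats 6 rose and 11 fell, which is 28.3% against 27.5%. The median log2 change of the list was -0.10 in mice and -0.06 in rats, beside 0.01 and -0.02 over all symbols tested. In rats 17 to 24, 4 rose and 3 fell, which is 11.7% against 7.26% of all symbols. In rats 25 to 32, 11 rose and 20 fell, which is 51.7% against 43.8%, so the larger number of calls in this range was shared by the whole table. The rises in KO rats, over all rats and in each range, include SLC7A11. As described below, it met the filter on low counts through the KO rats alone, so it adds no support to these shares. The KO change of 13 genes of the list differed between the ranges, 21.7% against 14.7% of all symbols, and was more positive in rats 25 to 32 for 3 and more negative for 10.

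Of the binding partners of NRF2, MAFF, a small MAF protein, rose in both species. It was at 0.0809 to 0.0893 units in KO and 0.0353 to 0.0635 units in WT mice (log2 change 0.66, SE 0.15, adjusted p = 0.0148, limma) and at 7.75 to 13.4 CPM in KO and 4.23 to 8.23 CPM in WT rats (log2 change 0.75, SE 0.15, adjusted p = 0.00151, edgeR). RXRA, a nuclear receptor that can bind NRF2, fell in the rats (log2 change -0.48, SE 0.11, adjusted p = 0.00453). MAFF alone passed in mice among 14 partners and regulators tested, 7.14% against 8.51% of all symbols. In rats, MAFF and RXRA were the 2 of 13 that passed, 15.4% against 27.5%. The other small MAF genes, MAFG and MAFK, passed neither in mice nor over all rats, and MAFG fell in rats 25 to 32.

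SLC7A11 encodes the cystine-importing subunit of the cystine-glutamate antiporter. It gave 11 to 76 reads in each KO rat and 0 to 3 reads in each WT rat, a total of 320 against 11 reads. The ratio per read of the library was 31.2, with an exact 95% interval from 17.2 to 63.2 that covers counting error only. At 0 to 3 reads in WT rats, SLC7A11 met the filter on low counts through the KO rats alone. Its call in the edgeR test therefore adds no support. GSR, glutathione reductase, fell in both species, by 0.40 (SE 0.11, adjusted p = 0.0419, limma) on the log2 scale in mice and by 0.36 (SE 0.06, adjusted p = 0.000643, edgeR) in rats. GSR did not pass in rats 17 to 24 (log2 change -0.19, adjusted p = 0.10) and fell by 0.51 (adjusted p = 0.000197) in rats 25 to 32, and the difference between these changes passed (adjusted p = 0.0353). GSTM1 in rats (log2 change 1.27, adjusted p = 0.00831, edgeR) and GSTP1 in mice (-0.42, adjusted p = 0.0157, limma) also passed. Both belong to gene families and held values that were not whole reads, so that reads shared with relatives leave them uncertain. The call of GSTM1 also rests on few reads, 6 to 13 in each WT rat and 9 to 40 in each KO rat.

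BLVRA, the biliverdin reductase that acts on the product of HMOX1, rose in KO rats, from a median of 27.9 CPM in WT to 62.1 CPM in KO rats, without overlap (log2 change 1.09, SE 0.15, adjusted p = 6.05e-05, edgeR). Its rise was 1.49 in rats 17 to 24 and 0.78 in rats 25 to 32 on the log2 scale, and these differed (adjusted p = 0.0248). FECH, which completes haem synthesis, fell by 0.28 (adjusted p = 0.0108, limma) in mice and by 0.15 (SE 0.05, adjusted p = 0.0416, edgeR) in rats, where KO and WT overlapped. Of the NADPH suppliers, IDH1 fell by 0.37 (SE 0.07, adjusted p = 0.00516) on the log2 scale in mice and by 0.38 (SE 0.08, adjusted p = 0.00175) in rats, and ME1 fell by 0.23 in mice (adjusted p = 0.0456). IDH1 did not pass in rats 17 to 24 (log2 change -0.18, adjusted p = 0.115), fell by 0.55 (adjusted p = 0.000196) in rats 25 to 32, and differed between the ranges (adjusted p = 0.0187). Of the thioredoxin relatives, TXNRD3 fell by 0.38 in mice (adjusted p = 0.031) and SESN2, a stress-induced sestrin, fell by 0.43 in rats (SE 0.08, adjusted p = 0.000817).

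Among detoxification genes, EPHX1, the microsomal epoxide hydrolase, had the largest change of the list in mice, with 2.703 to 3.27 units in KO and 1.60 to 1.78 units in WT mice (log2 change 0.84, SE 0.07, adjusted p = 1.17e-05, limma). AKR1B1, aldose reductase, rose in rats from 26.5 to 38.3 CPM in WT to 39.0 to 58.8 CPM in KO (log2 change 0.58, SE 0.10, adjusted p = 0.000538, edgeR). PIR rose in rats as well (0.44, SE 0.12, adjusted p = 0.0129). NQO2, a relative of NQO1, fell by 0.31 (SE 0.08, adjusted p = 0.0332, limma) in mice and by 0.51 (SE 0.08, adjusted p = 0.000371, edgeR) in rats. AKR7A2 fell by 0.38 in rats (adjusted p = 0.00137) and the efflux pump ABCC2 fell by 0.38 in mice (adjusted p = 0.0241). ABCC2 did not pass over all rats. It rose in rats 25 to 32, at 52.5 to 76.4 CPM in KO and 41.4 to 56.5 CPM in WT animals. Like GSR and IDH1, the genes RXRA, GSTM1, FECH and PIR passed over all rats but not in rats 17 to 24 alone.

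Markers of other cell types and of tubular injury moved with genotype in the same libraries. Beside the counts of markers, 6.14% of all symbols tested rose and 2.36% fell in KO mice. Over all rats, 15.2% rose and 12.3% fell. In rats 17 to 24, 5.07% rose and 2.19% fell, and in rats 25 to 32, 21.8% rose and 22.1% fell. Of 12 macrophage markers tested, 11 rose in KO mice and 10 in KO rats, with 7 in rats 17 to 24 and 11 in rats 25 to 32. The summed level of 13 macrophage markers was 255 to 312 CPM in KO and 166 to 172 CPM in WT mice. All mouse sums were taken from the recovered reads, scaled to the library total without TMM. With that scaling, 91.4% of the symbols that passed in mice were higher in KO mice, against 72.2% in the main test. In rats it was 228 to 249 CPM in KO and 146 to 193 CPM in WT animals of the lower range, and 421 to 607 CPM in KO and 212 to 268 CPM in WT animals of the higher range. Of 6 fibroblast markers, 3 rose in KO mice and 5 in KO rats, with summed levels of 307 to 352 against 163 to 199 CPM in mice.

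Of 8 markers of tubular injury, 4 rose in KO mice and 7 in KO rats. Their sum in rats was 671 to 793 CPM in WT and 1403 to 2035 CPM in KO animals of the lower range, and 633 to 717 CPM in WT and 4277 to 6302 CPM in KO animals of the higher range. In KO mice the sum was 3998 to 5132 CPM, against 1926 to 2788 CPM in WT mice. SPP1 gave up to 145233 reads in a rat and 126655 in a mouse. No other marker of the list gave more than 15400 and 33477 reads, so the higher sums rest largely on SPP1. In mice HAVCR1, KRT8, KRT18 and CLU did not pass. Of 9 proximal tubule markers tested in rats, 6 fell, and their sum in rats 25 to 32 was 8708 to 10901 CPM in KO and 17558 to 20469 CPM in WT animals. In rats 17 to 24, 2 of them fell, SLC34A1 and AQP1. The sum there was 12145 to 12602 CPM in KO and 14284 to 16214 CPM in WT animals, also without overlap. In mice the sums of this list overlapped, at 18107 to 19506 CPM in KO and 18920 to 24237 CPM in WT animals. Of the distal nephron markers, 0 of 6 passed in mice and 2 of 4 rose in rats 25 to 32, and their sums did not overlap, at 9648 to 10578 CPM in KO and 7817 to 9098 CPM in WT mice and at 4148 to 4989 CPM in KO and 3005 to 3700 CPM in WT rats 25 to 32. Of 7 markers of podocytes and endothelium, 3 fell in rats 25 to 32, with sums of 610 to 711 CPM in KO and 756 to 863 CPM in WT animals. These 3 were 42.9% of their list and the 2 distal nephron markers 50% of theirs, where 43.8% of all symbols passed. In rats 17 to 24 the sums of both lists overlapped between KO and WT. Red blood cell markers summed to 347 to 770 CPM in KO rats and 503 to 718 CPM in WT rats and overlapped. To this sum SLC4A1 gave 6040 to 12334 reads in each rat, beside 119 to 1037 for HBB. HBA1 and HBA2 gave 913 to 8023 and 593 to 5148, with values that were not whole reads. The sums are therefore no measure of haem. No marker of these lists was at 0 in every library of a species. The injury sums did not overlap between KO and WT in the mice either. The part of these cells in the changes of HMOX1, SRXN1 and the other members was not tested.

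**Figure D4:**
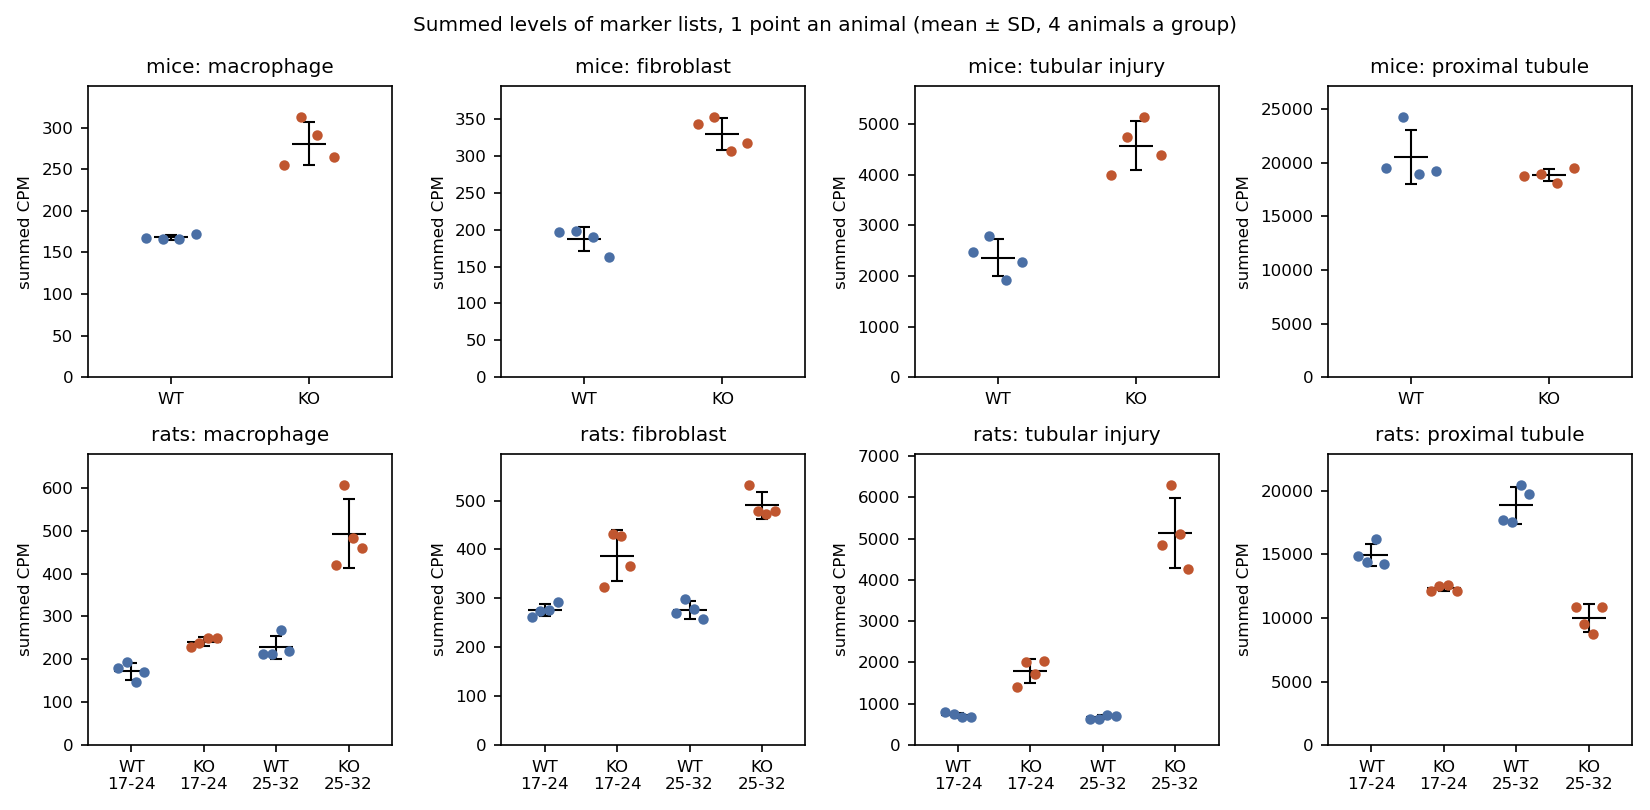
Summed CPM of the markers of macrophages, fibroblasts, tubular injury and proximal tubule in each WT (blue) and KO (orange) animal, in mice above and in rats by number range below, with the mean and SD of 4 animals. The mouse sums are scaled to the library total without TMM. The injury sum, which rests largely on SPP1 where it is high, reaches 4277 to 6302 CPM in KO rats of the higher range. The proximal tubule sum is lowest in the same rats.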

How the data were processed

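RNA was isolated from the kidneys of 24 animals, and stranded mRNA libraries were sequenced as paired reads, per the labels and the study's methods. The submitters' processing notes name bcl2fastq 2.20, STAR 2.7.3, DESeq2 1.24.0 and R 3.6.1, with the builds mm10 and rn5. How reads were counted is not given in the sources used here. Both tables use human-style symbols, so that several rodent genes may stand under 1 symbol. For the mouse, the authors deposited a scaled signal per symbol, whose values equal a read count raised by 0.5 and then divided by the library's 75th percentile, itself raised by 0.5. For the rat, the authors deposited an estimated count per symbol, here the reads plus 1/6. Whole reads, within 0.01, were recovered for 99.0% of mouse and 97.7% of rat values, including all values of the 8 genes, and rat values were rounded to whole reads. The lowest chi-square per degree of freedom between libraries of a group was 8.85, so none was a copy of another.

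The mouse test was that of limma 3.58.1, with its trend and robust settings, on log2(value + 0.01) for symbols with a mean of at least 0.02, so fold changes of low genes are understated. Rat reads were tested with edgeR 4.0.16 (quasi-likelihood, TMM, its filter on low counts) in R 4.3.3, over all rats, within each number range, and for the difference between ranges and between WT ranges in a fit with 4 cell means. P-values were two-sided and adjusted by the Benjamini-Hochberg method over all symbols tested, with a threshold of 0.05. Alternatives were DESeq2 1.42.0, other scalings, pseudocounts of 0.1 and 1, other filters, limma-voom, the number range as a covariate, and leaving out each animal. The functions were tested on simulated data. The 8 genes, the wider list and the marker lists were chosen with earlier results of these data known. All 8 genes are named, and of the wider list those that passed in mice or in all rats, at most 12 per comparison by size of change. Intervals are 95% confidence intervals, and the read totals limit the precision. Mouse positions are from GENCODE vM21.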

Additional observations from a re-analysis of the deposited data

Results flagged for a closer look

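KEAP1 in WT rat 23 stood at 58.26 CPM, above the 52.5 to 53.2 CPM of the other 3 WT rats of the numbers 17 to 24, a gap that was large for a group of 4. It was the only such value in 64 groups of 4 or 8 animals examined for the 8 genes, a check that chance alone meets in about 1 group of 20. The change of KEAP1 in rats 17 to 24 stayed between -0.11 and -0.07 on the log2 scale, and did not pass the test, in all 11 alternative analyses.

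The change of NQO1 with genotype was larger in rats 25 to 32 than in rats 17 to 24 by 0.5521 on the log2 scale (SE 0.16, adjusted p = 0.0258, edgeR). It is listed because the changes of the 2 ranges differed by a test of the difference itself. In the lower range the KO mean was 10.7 CPM and the WT mean 11.8 CPM, and in the higher range they were 12.2 and 9.24 CPM. The range is not explained by the labels, and whatever else differed between the ranges cannot be told apart from it.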

How the results depend on the processing

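HMOX1 and SRXN1 kept their rise past the threshold in all 21 alternative analyses of all rats and in all 11 of each number range, with log2 changes of 1.54 to 1.70 and 1.18 to 1.29 over all rats. Of 760 values of single members under alternatives, 20 lost and 9 gained a call and 0 changed the direction of a call. In mice 0 members passed, against 1 with DESeq2 on recovered reads and 0 to 2 without single animals. Between the changes of the 2 rat ranges 1 member passed, against 0 to 2 without single animals, and between the WT ranges 3, against 1 to 4. Counts of all symbols were 1066 in mice (592 to 1311 without single animals, lowest without KO mouse 6), 843 in rats 17 to 24 (504 to 930, lowest without KO rat 24) and 1745 between the changes of the ranges (1010 to 2392, lowest without KO rat 28). The wider list held 10 calls in mice, against 16 with DESeq2, 5 without a filter, 5 when scaled to the library total and 2 at the lowest without KO mouse 6, and 7 in rats 17 to 24, against 12 with DESeq2. The causes were not tested. No paired analysis was possible because the labels do not say which KO and WT animals were littermates. SRXN1 rested on 44 to 216 reads per rat, and counting error limits the precision of its values accordingly.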

Other observations

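Among WT rats alone, the wider list of NRF2 pathway genes differed between the number ranges. Of 60 genes tested, 25 were higher and 8 were lower in WT rats 25 to 32 than in WT rats 17 to 24, which is 55.0% against 21.1% of all symbols, and the median log2 difference was 0.21 beside 0.01 over all symbols. The share of all symbols that were higher was 11.7%, and 9.43% were lower. By group, 5 of 11 genes of glutathione synthesis and use and 5 of 7 genes of haem and iron were higher and 0 were lower in either. Of 17 genes of detoxification and efflux, 7 were higher and 3 were lower (CBR1, AKR1B1 and PIR), of 8 thioredoxin relatives 3 and 2, of 13 partners and regulators 3 and 2, and of 4 NADPH suppliers 2 and 1. The following genes were chosen after their values were seen. GCLC, the catalytic subunit that limits glutathione synthesis, was higher by 1.34 on the log2 scale (SE 0.20, adjusted p = 0.000219, edgeR). FTH1, the ferritin heavy chain, was higher by 0.59 (SE 0.09, adjusted p = 0.000121), and ALDH1A1, a retinaldehyde dehydrogenase, by 1.15 (SE 0.09, adjusted p = 2.07e-07). PIR was lower by 0.43 (adjusted p = 0.0239) and NQO1 by 0.36. Markers of cell types moved with this difference. Of 9 proximal tubule markers 5 were higher and 2 lower, with sums of 14284 to 16214 CPM in the lower and 17558 to 20469 CPM in the higher range. Of the distal nephron markers 4 of 4 were lower, and of podocyte and endothelium markers 5 of 7 were lower and 0 higher. Of 12 macrophage markers 5 were higher and 1 lower, of 8 markers of tubular injury 3 and 1, of 6 fibroblast markers 1 and 0, and of 5 red blood cell markers 0 and 1. The part of these cells in the difference was not tested.

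The symbols whose levels most resembled those of the members were found by Pearson r of log2 values, over 16 rats or 8 mice that share genotype groups and libraries, as a description without a test. In rats, GDF15 (r = 0.982), MYC (0.981) and PVR (0.977) were most like HMOX1, and ARHGAP11A (0.964), NUSAP1 (0.963) and CENPF (0.961) were most like SRXN1. BAG3 (0.928) was most like TXNRD1, and COX5A (0.960) was most like TXN. In mice, NADK (0.994), ENTPD5 (0.990) and LGALS8 (0.987) were most like NQO1. For NQO1 in rats the highest r was lower, at 0.798 for FBXL12.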
